A study of Sus scrofa with 2 samples.

Results

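The cells described here were keratinocytes of pig skin that carried the basal keratins KRT5 and KRT15 and few transcripts of the other keratinocyte states of the same skin. They were chosen by measured values. A barcode was kept when it had at most 4500 genes, at most 30000 UMIs (unique molecular identifiers, each standing for 1 captured transcript) and at most 10% of its UMIs on the 13 protein genes of the mitochondrial chromosome. It then needed KRT5 at 0.3% or more of its UMIs and at least 5 KRT15 UMIs. It also had to have KRT1 and KRT10 below 1% of UMIs, fewer than 3 UMIs of SERPINB2, CCL27 and CLDN4, fewer than 3 of PTHLH and SOX9, COL1A1, COL1A2 and COL3A1 below 1%, and fewer than 5 UMIs of the division genes TOP2A, CDK1, UBE2C and CDC20. These limits left 20 of 2775 filtered cells of the fresh library and 34 of 4223 of the cryopreserved library, 54 of 6998 in all, from 9239 barcodes.

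The study asked whether pig skin cells can be frozen before single-cell RNA sequencing. Full-thickness dorsal skin of healthy male farm pigs was dissociated, dead cells were removed by FACS, and 1 library was made from fresh cells and 1 from cells frozen in 90% FBS with 10% DMSO and thawed, both with the 10x Genomics 3′ kit. The extraction text attached to both samples describes freezing, so the fresh group rests on the title and treatment labels, and whether 1 animal gave both is not stated in the labels or the methods. No test could be run on 1 library a group: every value below describes this pair of libraries, cells are not replicates, and the intervals (95%) cover counting error or, for medians, the spread over cells or genes, never the spread between libraries.

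The basal layer is the innermost sheet of the epidermis, where keratinocytes sit on the basement membrane, divide and send daughter cells upward to differentiate. Basal cells pair KRT5 with KRT14, and KRT15 is a further basal keratin that is also known from the bulge of the hair follicle. They hold to the basement membrane by hemidesmosomes, built from the integrin of ITGA6 and ITGB4, the transmembrane collagen COL17A1 and the plakins DST and PLEC, and laminins such as those with LAMA3 and LAMB3 chains lie beneath. Cells that leave the layer lose these anchors and turn on KRT1 and KRT10, and later the genes of the cornified envelope.

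The label basal was checked against the given markers KRT5, KRT15, ITGA6 and COL17A1, of which the rule had used KRT5 and KRT15, so that ITGA6 and COL17A1 alone were free to go against it. ITGA6 and COL17A1 were higher than in the cells with KRT1 and KRT10 and than in fibroblasts and T cells. KRT5 was lower than in the cells with KRT1 and KRT10. The markers did not set these cells apart from the largest keratinocyte set of the same skin, the cells with SERPINB2, CCL27 or CLDN4 UMIs, which carried more KRT5, ITGA6 and COL17A1, and more KRT15 as well once 1 fresh member, described next, was left out. The cells are therefore called KRT5 and KRT15 keratinocytes below, after the genes that chose them. Levels are CPM, the UMIs of a gene summed over the cells of a set in 1 library and scaled to a total of 1000000, scaled with TMM factors over the keratinocyte sets.

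KRT15 (chr12:21124605-21130247, Sscrofa11.1, as all positions here) had 692 UMIs over the fresh members and 402 over the cryopreserved ones. Per fresh member the lowest count was 5, the median 16 and the highest 349, and per cryopreserved member 5, 10 and 34. A single fresh member with 19849 UMIs held 50.4% of the fresh KRT15 UMIs, and the next highest held 47 UMIs. The level was 2644 CPM (2450 to 2848) in fresh and 1492 CPM (1350 to 1645) in cryopreserved members, a ratio of 0.564 (0.498 to 0.639). Without that member it was 1424 CPM (1277 to 1583) and 1489 CPM (1347 to 1642), a ratio of 1.05 (0.903 to 1.21), so the difference between the libraries rested on 1 cell. KRT15 was at 2430 and 1825 CPM in the cells with SERPINB2, CCL27 or CLDN4, above the fresh members without that cell and above the cryopreserved members, which were at 0.818 (0.738 to 0.904) of that level, at 1109 and 1694 CPM in the cells with PTHLH or SOX9, and at 182 and 65.9 CPM in the cells with KRT1 and KRT10 (fresh and cryopreserved in each case). Fibroblasts, which should lack it, were at 1.26 and 1.77 CPM, with a KRT15 UMI in 1.76% and 1.69% of cells.

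KRT5 (chr5:17862047-17868397), the partner keratin of the basal layer, had 3442 and 2488 UMIs in fresh and cryopreserved members, with 17, 77.5 and 1123 as the lowest, median and highest fresh count and 17, 50.5 and 302 in cryopreserved members. The highest count came from the same fresh member as the highest KRT15 count. Its level was 13150 CPM in fresh and 9235 CPM in cryopreserved members, and 9627 and 9213 CPM without that member. In the cells with SERPINB2, CCL27 or CLDN4 it was higher, at 21552 and 19171 CPM. In the cells with KRT1 and KRT10 it was at 14141 and 9874 CPM, so that members were at 0.93 (0.897 to 0.964) and 0.935 (0.897 to 0.975) of their level. The fresh ratio leaned on that 1 member, since the 9627 CPM without it lay further below 14141 CPM. In fibroblasts KRT5 was at 22.2 and 26.4 CPM.

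ITGA6 (chr15:78504108-78591779), a hemidesmosome integrin, was detected in 18 of 20 fresh and 31 of 34 cryopreserved members, with medians of 4 and 3 UMIs and highest counts of 29 and 22. Its level was 420 CPM (345 to 507) in fresh and 627 CPM (536 to 729) in cryopreserved members. The cells with KRT1 and KRT10 were lower, at 263 and 229 CPM, and the cells with SERPINB2, CCL27 or CLDN4 higher, at 929 and 794 CPM. Fibroblasts had 2.65 and 3.79 CPM of ITGA6 and 2.72 and 3.41 CPM of COL17A1. COL17A1 (chr14:114959404-115007734) was detected in every member, with medians of 8.5 and 7.5 UMIs and highest counts of 32 and 21. It was at 711 CPM (612 to 820) in fresh and 1032 CPM (914 to 1161) in cryopreserved members. Against the cells with KRT1 and KRT10 that was 4.11-fold (3.38 to 4.98) and 4.75-fold (4.08 to 5.51) higher, and against the cells with SERPINB2, CCL27 or CLDN4 it was 0.404 (0.347 to 0.467) and 0.652 (0.577 to 0.735) of their level. TP63 (chr13:127115990-127347082), the master transcription factor of stratified epithelia, was at 879 and 735 CPM in members, at 457 and 467 CPM in the cells with KRT1 and KRT10 and at 1243 and 980 CPM in the cells with SERPINB2, CCL27 or CLDN4.

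**Figure D1:**
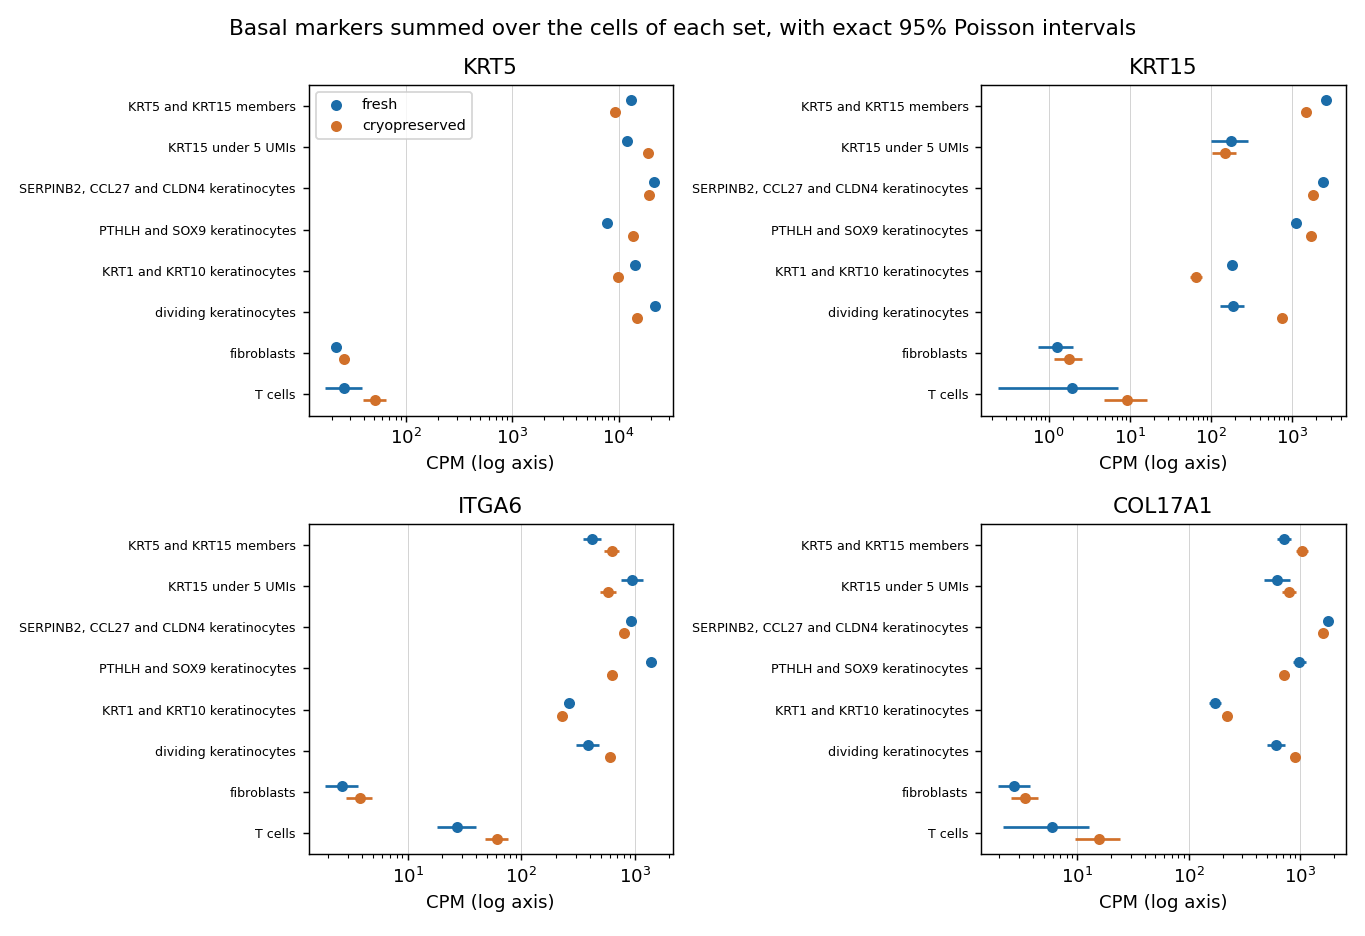
Level of KRT5, KRT15, ITGA6 and COL17A1 in 8 cell sets (CPM, log axis) for the fresh and the cryopreserved library, with 95% Poisson intervals that cover counting error only. The cells with SERPINB2, CCL27 or CLDN4 lie above the KRT5 and KRT15 keratinocytes in KRT5, ITGA6 and COL17A1, and the fibroblasts and T cells lie far below, with KRT15 at 1.26 and 1.77 CPM in fibroblasts.

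The 250 bases before the annotated starts of COL17A1, one of the markers the cells were checked against, and of PLAUR, a gene far lower in them than in the cells with SERPINB2, CCL27 or CLDN4, are shown because each holds 1 match to the letters TGANTCA, the site of AP-1 factors such as FOS and JUN. The motif reads the same on both strands, and its match is in capitals. The sequences are from RefSeq (Sscrofa11.1), 5′ to 3′ on the strand of the gene. They lie at chr14:115007735-115007984 on the minus strand for COL17A1 and at chr6:50505454-50505703 on the minus strand for PLAUR.
COL17A1: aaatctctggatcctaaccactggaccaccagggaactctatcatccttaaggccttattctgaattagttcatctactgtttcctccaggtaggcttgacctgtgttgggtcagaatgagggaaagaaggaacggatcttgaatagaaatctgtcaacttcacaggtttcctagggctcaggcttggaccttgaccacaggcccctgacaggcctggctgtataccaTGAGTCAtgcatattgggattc
PLAUR: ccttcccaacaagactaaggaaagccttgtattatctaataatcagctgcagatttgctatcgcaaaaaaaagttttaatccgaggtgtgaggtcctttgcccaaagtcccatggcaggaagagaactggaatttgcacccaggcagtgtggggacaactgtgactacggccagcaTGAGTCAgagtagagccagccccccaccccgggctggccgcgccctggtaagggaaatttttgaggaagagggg
The matches begin 22 bases before the start in COL17A1 and 74 bases in PLAUR. Of 19534 promoters of protein-coding genes of this length, 1026 (5.25%) hold the motif. A match describes letters in this window and nothing about binding.

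Few cells passed the limits that set other keratinocyte states aside. Of the cells that met the KRT5 and KRT15 limits, 264 fresh and 453 cryopreserved, most were past the limit on SERPINB2, CCL27 and CLDN4: 232 (87.9%, 83.3 to 91.6%) and 385 (85.0%, 81.4 to 88.2%). A further limit, on PTHLH and SOX9, was passed by 29 (11%) and 57 (12.6%). Some cells were past more than 1 limit, and 20 of the 264 and 34 of the 453 were past none and so were members. Of all filtered cells with KRT5 at 0.3% or more and the 3 collagens below 1%, 446 fresh and 928 cryopreserved, they were 4.48% and 3.66%. With 5 or 6 KRT15 UMIs, just inside the limit, there were 2 fresh and 6 cryopreserved members, and with 3 or 4, just outside, there were 4 and 5 cells that met every other limit. Summed over these cells as CPM of their own UMIs, COL17A1 was at 453 inside and 403 outside in fresh cells, and at 1289 inside and 892 outside in cryopreserved cells. ITGA6 was at 227 inside and 377 outside in fresh cells, and at 764 inside and 966 outside in cryopreserved cells. KRT5 was at 22747 inside and 14746 outside in fresh cells, and at 17365 inside and 18727 outside in cryopreserved cells.

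The share of filtered cells that were members was 0.721% (exact binomial interval 0.441 to 1.11%) among fresh and 0.805% (0.558 to 1.12%) among cryopreserved cells. The difference of 0.0844 percentage points had an interval of -0.367 to 0.491, which includes 0 and covers the counting error of these 2 libraries alone. Fresh members had a median of 12153.5 UMIs (9151 to 15207, range 2405 to 19849) and cryopreserved members 6648.5 (5656 to 8044, range 2320 to 13719), a ratio of 0.547 (0.372 to 0.879). The ranges overlapped, and cryopreserved members were the shallower ones. Lower depth was not particular to members. The cells with SERPINB2, CCL27 or CLDN4 had medians of 14871 and 9272 UMIs, and all filtered cells 11017 and 7945 (fresh and cryopreserved). Summed, fresh members held 242286 UMIs and cryopreserved members 244696, so the 2 sums were close in total, from fewer and deeper cells in the fresh library. The median number of genes was 3540.5 and 2594.5, and after each cell was thinned to 3000 UMIs, which left 19 fresh and 33 cryopreserved members, it was 1546 and 1557. Mitochondrial genes took a median of 5.87% and 5.30% of UMIs in members, against 4.53% and 5.03% in the cells with SERPINB2, CCL27 or CLDN4. The libraries shared 6 barcode sequences, and 0 of these were members.

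**Figure D2:**
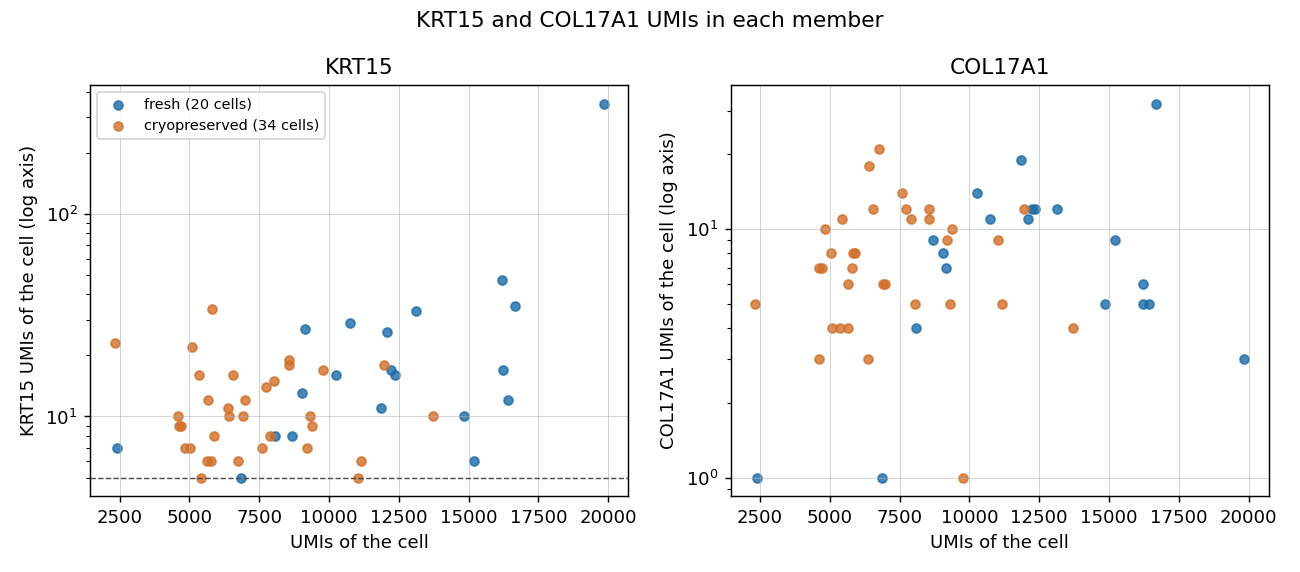
KRT15 and COL17A1 UMIs of each member (vertical axis, log scale for counts) against its total UMIs, by library, with a dashed line at the KRT15 limit of 5 UMIs. One fresh member with 349 KRT15 UMIs stands above all others, and the cryopreserved members lie at fewer total UMIs, with a median of 6648.5.

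UMIs of other lineages' markers were present in most members. Over all their lists, 20 of 20 fresh and 34 of 34 cryopreserved members held at least 1 UMI and 20 and 32 held 3 or more, and DCN, a matrix proteoglycan of fibroblasts, was in 16 and 20 members. The 7 immune markers PTPRC, CD83, CD86, BCL2A1, AIF1, TYROBP and CIITA had 65 UMIs in fresh members, all in 1 cell with 16220 UMIs that also held 196 UMIs of CD74, and 0 UMIs in cryopreserved members. Of the endothelial markers 10 of 14 were at 0 in both libraries, of the T cell markers 10 of 12, of the melanocyte markers 8 of 9, of the Merkel cell markers 6 of 7, of the mast cell markers 3 of 5, of the mural markers 5 of 10, of the sebaceous and sweat gland markers 6 of 10 and of the myeloid markers 4 of 14. The remaining endothelial level, 76.4 and 66.8 CPM, was mostly PECAM1, whose 16 and 17 UMIs lay in 3 members of each library. The melanocyte sum of 157 and 92.8 CPM was MITF in the main, the fibroblast sum of 500.5 and 382 CPM was led by DCN (172 and 122 CPM, against 5201 and 5046 CPM in fibroblasts and 196 and 141 CPM in the cells with SERPINB2, CCL27 or CLDN4) and COL5A2, and the erythrocyte sum was HBB (183 and 174 CPM). CD74, the invariant chain of MHC class II, led the Langerhans and dendritic sum of 2758 and 1878 CPM, with 671 UMIs in all 20 fresh members and 506 UMIs in 33 of 34 cryopreserved members, about as many as KRT15 had. So CD74 was spread over members, while the 7 immune markers above, a set chosen after seeing the data, were in 1 fresh cell. Other immune markers had few UMIs, with 6 UMIs of myeloid markers (C1QC and CD14 at 2 each) and 1 of the T cell chemokine CCL5 in cryopreserved members. The part of free RNA or of joined cells in these levels was not tested. Without the cell that held the immune markers, 19 fresh members remained and the numbers of genes 2-fold apart given below stayed within 1.5 times their value.

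KRT1 and KRT10, the first keratins of differentiation, stayed below the 1% limit by choice, with 16 and 12 UMIs of KRT1 and 100 and 80 of KRT10. They were uneven: 1 fresh member held 12 of the KRT1 UMIs and 53 of the KRT10 UMIs were in 1 member, and in the cryopreserved library 8 and 34 were in 1 member. The other genes that the rule kept low had 2 and 2 UMIs (SERPINB2), 5 and 17 (CCL27), 0 and 7 (CLDN4), 3 and 8 (PTHLH), 14 and 12 (SOX9), 17 and 26 (COL1A1), 23 and 13 (COL1A2), and 17 and 20 (COL3A1). TOP2A, CDK1 and UBE2C were at 0 in both libraries, and CDC20 had 1 UMI in a fresh member and 0 among cryopreserved members.

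Within the members, genes differed in how evenly they were spread. After thinning to 3000 UMIs, the median ratio of variance to mean over 3883 genes was 1.07 in fresh and 1.19 in cryopreserved members, close to the value of counting alone. KRT5, a gene of the rule, reached 42.6 and 13.6, with up to 169 UMIs in a fresh member against a fresh median of 18. A gene without a name in these files, ENSSSCG00000017448, reached 19.6 and 13.6. The metallothionein MT1X, which binds zinc and copper, reached 14.1 and 26.1, with 0 to 54 UMIs per fresh and 0 to 138 per cryopreserved member. ZFP36, an early response gene that destabilises inflammatory transcripts, reached 9.23 and 10.7, the transcription factor ATF3 6.98 and 10.1, tissue factor (F3) 8.64 and 14.6 and the calcium-binding protein S100A2 8.32 and 7.13. The ribosomal protein gene RPS12 (8.30 and 8.82), RPGRIP1L, of the base of the cilium (13.7 and 7.69), and the unnamed ENSSSCG00000048856 (7.12 and 15.1) were the other 3 of the 10 genes ranked highest over both libraries. Across members, which share depth and library, high correlations with KRT15 among 1567 genes, on shares of UMIs, belonged to ND3 (r = 0.576 in 20 fresh and 0.423 in 34 cryopreserved members), NDUFB2 (0.303 and 0.340) and ND4 (0.410 and 0.287). For KRT5, which like KRT15 the rule had limited, the values were 0.392 and -0.0838.

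The comparison with the cells that the rule turned away asks what else differs between the KRT5 and KRT15 keratinocytes and their neighbours. The rule used this contrast, so its values are a description, and nothing is read from the counts. Of 9450 genes with at least 50 UMIs over the profiles compared, 172 (1.82%) were at least 2-fold higher in members than in the 286 fresh and 556 cryopreserved cells with SERPINB2, CCL27 or CLDN4 in both libraries, and 260 (2.75%) at least 2-fold lower. At a log2 ratio of 0.5 or more these were 548 (5.80%) and 959 (10.1%). Over all genes the median log2 ratio was -0.01 for fresh and -0.02 for cryopreserved cells.

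The genes named here are those with the highest and lowest ratios when 1 cell could hold up to 30% of a gene's UMIs, a limit chosen after seeing the data. Under the planned limit of 10% the 10 highest, led by an unnamed gene (ENSSSCG00000009610, 3.54- and 3.37-fold) and FOXO6 (2.24- and 2.56-fold), had at most 9 UMIs per library in members. MOXD1, an enzyme of the copper monooxygenase family, had 47 UMIs in 15 of 20 fresh members and 62 in 21 of 34 cryopreserved members, with 0 to 7 per member in each library. That was 180 and 230 CPM, against 9.98 and 20.1 CPM in the cells with SERPINB2, CCL27 or CLDN4, 18.0-fold (11.5 to 28.3) and 11.4-fold (8.22 to 15.8) higher. C1QTNF12, a secreted protein of the adipolin type, was at 290 and 397 CPM against 41.7 and 75.5 CPM, 6.96-fold (5.23 to 9.20) and 5.26-fold (4.21 to 6.53). Both genes were present in most members and not in a single deep cell. MOXD1 was also present in the cells with PTHLH or SOX9, with 81 UMIs in 17 of 18 fresh and 134 in 36 of 56 cryopreserved cells. The median per 10000 UMIs of a cell was 2.79 and 1.71 there and 1.52 and 1.49 in members. At 3000 UMIs a cell, it was in 13 of 18 fresh and 21 of 54 cryopreserved cells of that set and in 8 of 19 and 16 of 33 members, so the order differed between the libraries. The cells that met every limit except that on KRT15 held MOXD1 as well. They had 12 UMIs in 4 of 14 fresh and 32 in 16 of 42 cryopreserved cells. Fibroblasts, 1024 and 1475 cells here, had 38.0 and 25.7 CPM of MOXD1 and 2.58 and 3.60 CPM of C1QTNF12, below the members.

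The matrix glycoproteins THBS2 and ABI3BP were also higher, THBS2 at 57.3 and 55.7 CPM against 6.91 and 9.58 CPM (8.30- and 5.81-fold), and ABI3BP at 237 and 200.4 CPM against 61.9 and 50.6 CPM (3.83- and 3.96-fold). Both are known from fibroblasts, which had 244 and 237 CPM of THBS2 and 694 and 544 CPM of ABI3BP here. The list of fibroblast markers had 1 of 7 genes higher in members by a log2 of 0.5 in both libraries (COL5A2, 0.79 and 0.89) and 0 lower, beside the 5.80% and 10.1% of all genes, with summed levels of 500.5 against 420 CPM in fresh and 382 against 379 CPM in cryopreserved cells, and DCN was at -0.19 and -0.20. PRICKLE2, of planar cell polarity, was 7.74- and 4.38-fold higher, the GATA cofactor ZFPM2 23.1- and 4.30-fold, the innate sensor NOD2 4.27- and 3.60-fold, CCDC3 4.55- and 3.58-fold and KLHL29 3.54- and 3.55-fold. PRICKLE2 was at 53.5 and 44.5 CPM in members, below the 149 and 97.5 CPM of the cells with PTHLH or SOX9 and the 263 and 254 CPM of fibroblasts. KLHL29 was at 53.5 and 48.3 CPM, against 70.2 and 66.9 CPM in fibroblasts. ZFPM2 differed between the libraries, with 65 UMIs in fresh and 16 in cryopreserved members.

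Among the genes that were lower, LY6D, a surface protein of epidermal cells, had 3 and 8 UMIs, or 11.5 and 29.7 CPM against 1660 and 1480 CPM, a ratio of 0.00691 (0.00142 to 0.0202) and 0.0201 (0.00866 to 0.0396). PLAUR, the urokinase receptor, was at 126 and 141 CPM against 1057 and 1061 CPM, a ratio of 0.119 (0.0820 to 0.168) and 0.133 (0.0940 to 0.183). Members held 33 PLAUR UMIs in 11 fresh and 38 in 18 cryopreserved cells, so the gene was low in most of them. PPIF, a mitochondrial cyclophilin (0.0850 and 0.0463), the alcohol dehydrogenase ADH1C (0.0702 and 0.0960), FGD6 (0.109 and 0.0851), the repressor PRDM1 (0.0779 and 0.132), the EGF receptor ligand AREG (0.136 and 0.0531) and ANKRD22 (0.158 and 0.148) were lower as well. A collagenase family gene was named MMP3 in the deposited gene list and MMP1 in the name table used here. It had 1 and 0 UMIs, against 257 and 307 CPM. Of the 172 genes that were higher, 146 matched a promoter and 8 of these (5.48%) held the motif shown above, and of the 260 that were lower 222 matched and 13 (5.86%) held it, close to the 5.25% of all promoters.

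**Figure D3:**
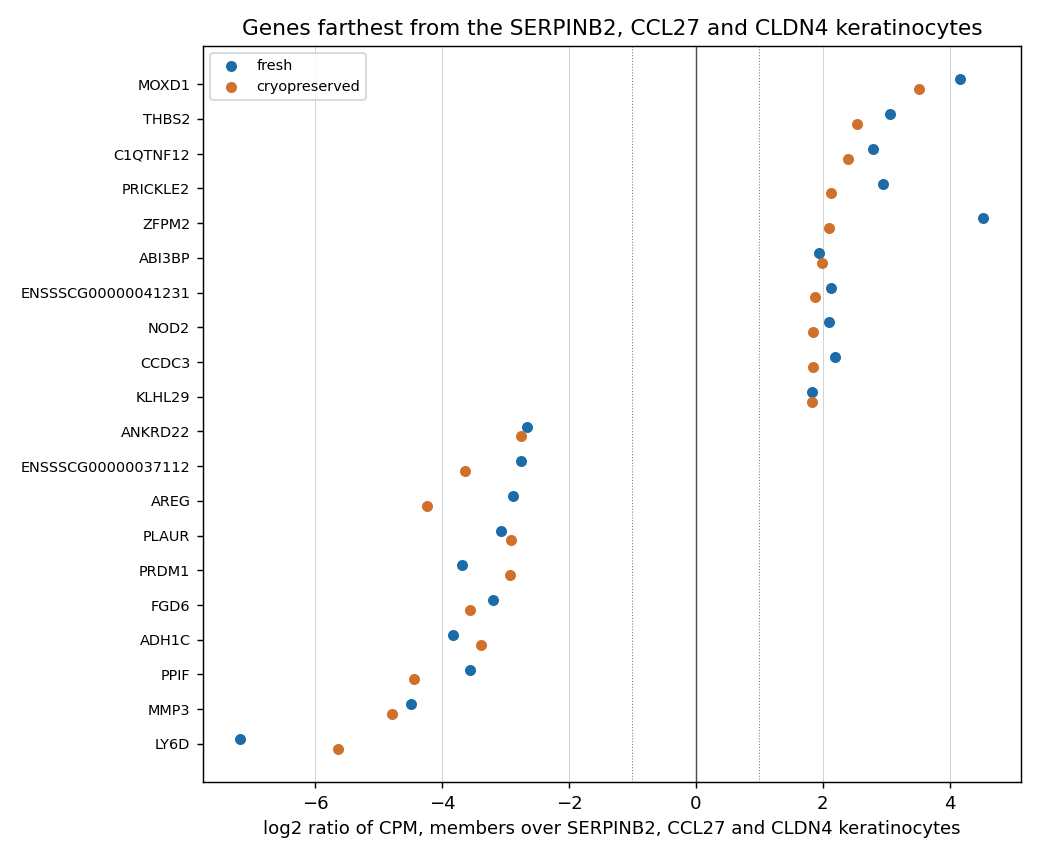
Log2 ratio of CPM in KRT5 and KRT15 keratinocytes over the cells with SERPINB2, CCL27 or CLDN4 for 20 genes, in the fresh and the cryopreserved library. MOXD1 stands at the top at 18.0- and 11.4-fold and LY6D at the bottom at ratios of 0.00691 and 0.0201.

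Among the anchoring genes, several were lower than in the cells with SERPINB2, CCL27 or CLDN4, and most were higher than in differentiating cells. Of the 18 measured hemidesmosome and basement membrane genes, 0 were higher by a log2 of 0.5 in members in both libraries and 7 lower, with medians of -0.91 and -0.37, where 5.80% of all genes were higher and 10.1% lower. They included the integrin chain ITGA3 (-0.91 and -0.90), while ITGB4, the partner of ITGA6, stood at -0.24 and -0.08. Against the 103 fresh and 213 cryopreserved cells with KRT1 and KRT10, 11 of 16 were higher and 1 lower, with medians of 1.07 and 1.03, where 9.99% of all genes were higher and 19.3% lower by this limit. ITGB4 was 10.1-fold (6.77 to 15.3) and 10.6-fold (7.45 to 15.2) higher there, and the collagen receptor ITGA2 15.7- and 34.5-fold. Of the desmosome genes, which join keratinocytes to each other, 0 of 12 were higher and 4 lower against the cells with SERPINB2, CCL27 or CLDN4 (medians -0.50 and -0.60), and 0 of 11 were higher and 10 lower against the cells with KRT1 and KRT10 (medians -1.42 and -1.73), among them DSP (-1.83 and -1.67) and DSG1 (-2.42 and -3.15). Of the adherens, tight and gap junction genes, 0 of 14 were higher and 4 lower (medians -0.31 and -0.43), led by the tight junction protein CLDN1 (-1.86 and -1.60).

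Genes of the cornified envelope and of late differentiation were mostly low. Of 22 found, 8 were at 0 in both libraries. Of all genes measured against the cells with SERPINB2, CCL27 or CLDN4, 5.80% were higher and 10.1% lower by a log2 of 0.5. Of the 13 late differentiation genes measured so, 1 was higher and 10 lower, with medians of -1.62 and -1.92. The transglutaminase TGM3, which cross-links the envelope, was lower (-4.12 and -2.83), and the protease inhibitor SPINK5 was the 1 that was higher (2.03 and 1.56), with 35 UMIs in 9 fresh and 30 in 10 cryopreserved members. Against the cells with KRT1 and KRT10, 0 of 18 were higher and 17 lower (medians -2.97 and -3.40), beside the same 9.99% and 19.3% of all genes. KRTDAP had 26 and 95 UMIs, 94.7% of the latter in 1 cryopreserved member.

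Of 17 transcription factors of the epidermis, 1 was higher and 6 lower (medians -0.50 and 0.11), beside the 5.80% and 10.1% of all genes: TRPS1, a GATA-type repressor known in hair follicle development, was higher (0.97 and 0.69), and KLF5 (-1.06 and -0.80) and ETS1 (-2.42 and -1.41, from 2 and 7 UMIs) were lower. Of 15 Wnt pathway genes 5 were higher and 4 lower (medians 0.06 and 0.18), beside the same shares of all genes, the former including the stem cell receptors LGR5 (5 and 13 UMIs, 2.52 and 3.17) and LGR6 (8 and 14 UMIs, 1.02 and 2.18), the pathway target AXIN2 (1.02 and 0.61) and the ligand WNT3A (0.78 and 0.94), and the latter the ligand WNT7B (-2.44 and -2.12). These Wnt genes rested on few UMIs. Of 10 Notch genes 1 was higher and 1 lower (medians -0.01 and 0.09), and of 10 hair follicle genes 2 were higher and 2 lower (medians 0.13 and 0.46), with the mucin-type protein PDPN at 0.83 and 0.93.

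Ligands and receptors of the EGF, FGF, IGF and TGF beta families had 2 of 27 genes higher and 4 lower (medians -0.23 and -0.15). The growth factor TGFB1 was higher (1.08 and 1.36), and the EGF receptor ligand HBEGF (-0.68 and -1.48) and the receptor MET (-3.39 and -2.15, from 3 and 6 UMIs) were lower. Genes of activated and wounded keratinocytes had 0 of 7 higher and 4 lower (medians -0.90 and -1.52), with S100A2 at 564 and 343 UMIs (-0.90 and -1.52) and the protease PLAU at 3 and 18 UMIs (-5.50 and -2.71). Cytokines and innate defence genes had 1 of 15 higher and 7 lower (medians -0.93 and -0.71). The prostaglandin synthase PTGS2 was lower (-4.08 and -3.16), as was the decoy receptor IL1R2 (-2.07 and -2.66), and the chemokine CCL2 was higher (0.96 and 1.25), although 52.0% of its cryopreserved UMIs were in 1 member. Over all genes, 5.80% were higher and 10.1% lower by this limit.

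Among the actin and contractile genes 3 of 23 were higher and 5 lower (medians -0.37 and -0.38), beside the 5.80% and 10.1% of all genes that hold for each list of this paragraph, and both cytoplasmic actins were lower, ACTB at -1.01 and -0.87 and ACTG1 at -1.07 and -0.99. Of the fatty acid and cholesterol genes 1 of 16 was higher and 3 lower, with medians of opposite sign (0.27 and -1.38): the fatty acid carrier FABP5 was higher (1.45 and 0.88). The cell cycle inhibitor CDKN1C was higher (1.15 and 1.18) and CDKN1A, a target of p53, lower (-1.44 and -1.44), the only such genes among 11 inhibitors and p53 targets measured. DNA replication genes had 1 of 18 higher and 0 lower, and mitosis genes outside the rule 0 of 8 in either direction. The early response and heat shock list had 1 of 22 higher and 2 lower, the metallothionein and oxidative stress list 1 of 16 in each direction, and the transport list 1 of 11 higher and 2 lower. Of 12 mitochondrially encoded genes 0 passed this limit in either direction.

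**Figure D4:**
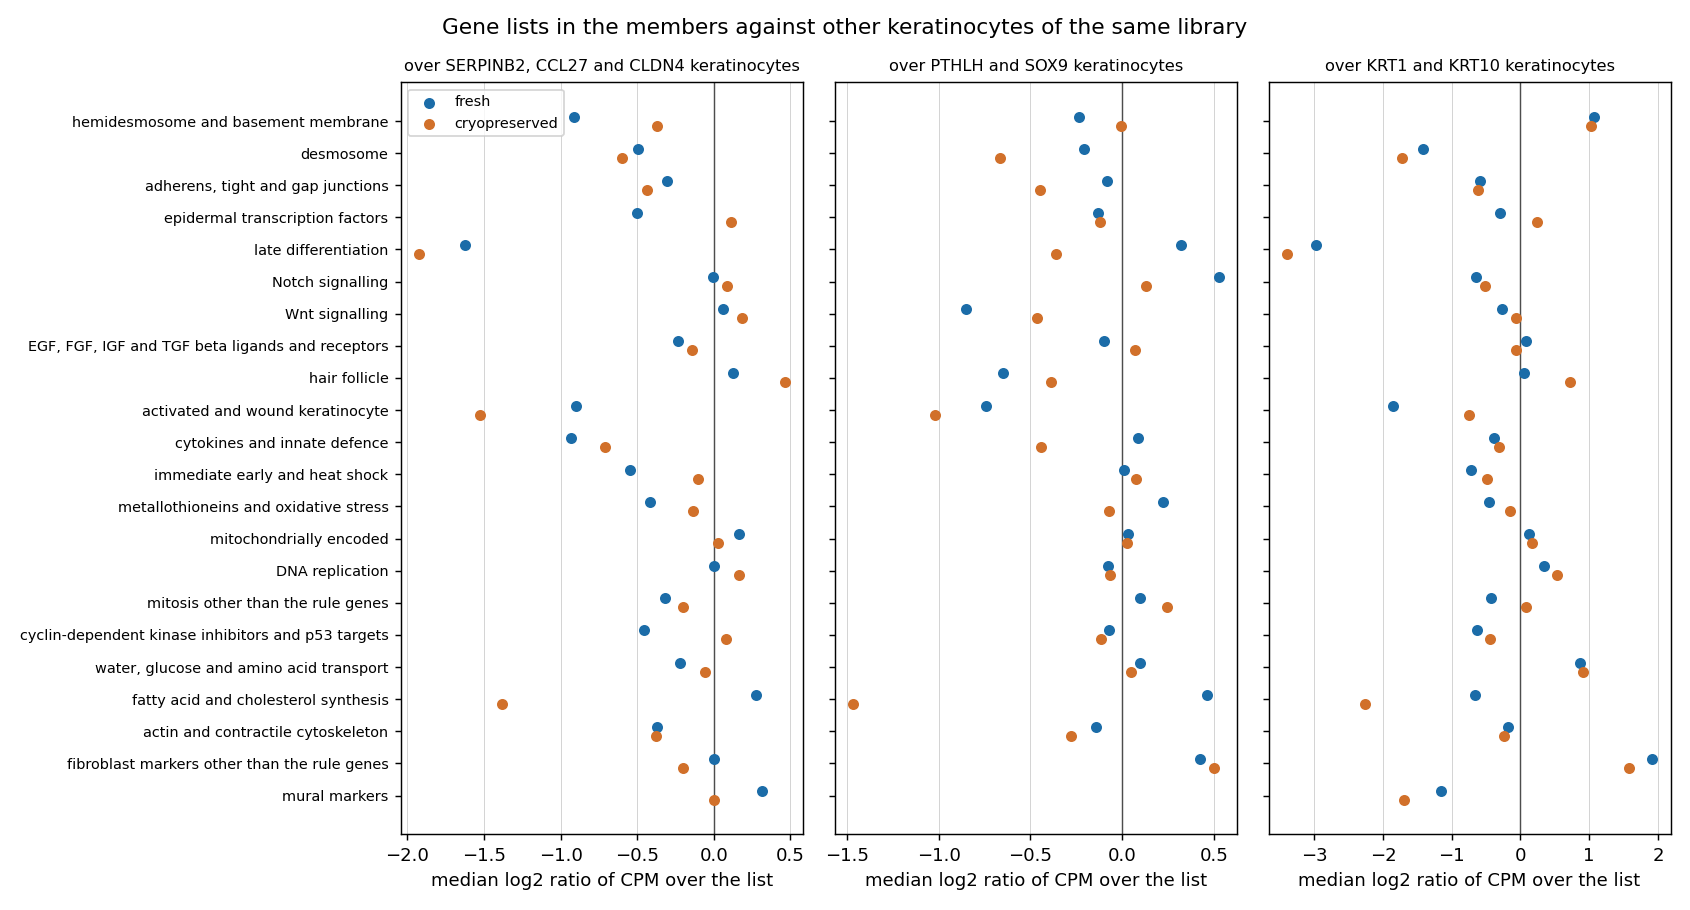
Median log2 ratio of each gene list with at least 5 genes measured against the cells with SERPINB2, CCL27 or CLDN4, in KRT5 and KRT15 keratinocytes over these cells, over the cells with PTHLH or SOX9 and over the cells with KRT1 and KRT10, by library. Late differentiation genes have the lowest medians, -2.97 and -3.40 against the cells with KRT1 and KRT10, and there hemidesmosome genes, at 1.07 and 1.03, lie below the fibroblast markers, at 1.92 and 1.58 from 4 genes.

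Against the 18 fresh and 56 cryopreserved cells with PTHLH or SOX9, fewer genes had enough UMIs to be compared. Of 4244 genes, 31 (0.730%) were at least 2-fold higher in members in both libraries and 77 (1.81%) lower. At a log2 of 0.5 these were 149 (3.51%) and 318 (7.49%), and the medians over all genes were -0.06 and -0.12. The transcription factor SOX5 was higher in members, at 267 and 345 CPM against 125 and 114 CPM, 2.14-fold (1.38 to 3.38) and 3.03-fold (2.17 to 4.24). OXR1, of oxidative stress resistance, was 2.03- and 3.90-fold higher, the ribosomal protein MRPL12 of mitochondria 2.17- and 1.90-fold and the repressor KLF3 3.16- and 1.86-fold. The growth factor receptor IGF1R was lower, at 588 and 379 CPM against 1572 and 1100 CPM. Its ratio was 0.374 (0.308 to 0.452) and 0.344 (0.276 to 0.425). RAI14 (0.247 and 0.324), RBMS3 (0.359 and 0.345) and MACC1 (0.347 and 0.438) were lower too. So were the desmosomal cadherin DSG3 (0.459 and 0.395) and CLDN1 (0.468 and 0.394). Of 16 hemidesmosome genes 0 were higher and 1 lower.

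Against the cells with KRT1 and KRT10, 319 of 7557 genes (4.22%) were at least 2-fold higher in members in both libraries and 541 (7.16%) lower. With a log2 of 0.5 the counts were 755 (9.99%) and 1460 (19.3%), and the medians over all genes were -0.21 and -0.20. PDPN, known from basal and migrating keratinocytes, was at 550 and 553 CPM against 9.39 and 14.2 CPM, 58.6-fold (33.8 to 110) and 39.0-fold (26.3 to 59.4) higher. Fibroblasts had more PDPN than members, at 1003 and 830 CPM. MOXD1 (67.0- and 62.8-fold), C1QTNF12 (39.4- and 48.2-fold), the ERBB ligand NRG1 (72.7- and 37.7-fold), the cadherin CDH13 (10.6- and 16.2-fold) and TGFB1 (8.66- and 10.1-fold) were higher, and the Notch ligand DLL1 was at 76.4 and 115 CPM against 0.670 and 1.83 CPM. LY6D (0.00169 and 0.00635), the protease inhibitor CSTA of the cornified envelope (0.0303 and 0.0246) and SBSN (0.0272 and 0.0191) were lower. So were DMKN (0.0305 and 0.0220) and the desmosomal cadherin DSC1 (0.0238 and 0.0384). Against the 14 fresh and 42 cryopreserved cells that met every limit except that on KRT15, of 2983 genes 27 (0.905%) were at least 2-fold higher in members in both libraries and 15 (0.503%) lower. C1QTNF12 was 6.54- and 2.93-fold higher, ankyrin ANK3 5.39- and 2.99-fold and VAV3 4.36- and 2.08-fold, and TET3 (0.413 and 0.488), ACTB (0.495 and 0.558) and GSN (0.628 and 0.504) were lower.

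The comparison between the libraries asks how these cells differed after freezing and thawing. The rule did not use this contrast, but several of its limits are UMI counts, set alike for deep and shallow cells. Cryopreserved members were shallower, with a median of 6648.5 UMIs against 12153.5. Fresh and cryopreserved members held 2 and 2 UMIs of SERPINB2, 5 and 17 of CCL27, and 0 and 7 of CLDN4. The part of this selection in the values below was not tested. Of 1877 genes with at least 50 UMIs over both libraries, 75 (4.0%) were at least 2-fold apart, 34 (1.81%) higher in cryopreserved members and 41 (2.18%) lower. The median log2 ratio was -0.00 and the median of its size 0.302 (0.280 to 0.315). A log2 of 0.5 or more was reached by 245 genes (13.1%) on the higher and 274 (14.6%) on the lower side, and counting intervals excluded 1 for 382. For all 75 genes that were 2-fold apart, 1 member held over 10% of the UMIs of a library, as for 1846 of the 1877 genes, so single cells weighed on nearly every value.

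Several early response genes were higher in cryopreserved members. Of 20 measured early response and heat shock genes 8 were higher by a log2 of 0.5 and 0 lower, with a median of 0.37, where 13.1% of all genes were higher and 14.6% lower. EGR1, a transcription factor switched on within minutes of stress or growth signals, had 53 UMIs in 14 of 20 fresh and 117 in 24 of 34 cryopreserved members, 2.14-fold (1.54 to 3.03) higher. The phosphatase DUSP1, which turns off MAP kinases, had 74 and 165 UMIs, 2.17-fold (1.64 to 2.89), and FOS (341 and 593 UMIs, log2 0.76), FOSB (0.88), ATF3 (202 and 428 UMIs, 1.04) and ZFP36 (0.61) were higher too, with JUN at 0.48. The heat shock proteins of this list stayed near 0, HSPB1 at -0.26, HSP90AA1 at -0.16 and HSPD1 at 0.25. In the cells with SERPINB2, CCL27 or CLDN4 of the same libraries EGR1 was at -0.13 and DUSP1 at 0.38, and the difference between the 2 sets was not tested.

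BHLHE40, a repressor that responds to stress and to the circadian clock, had 52 UMIs in 16 fresh and 143 in 28 cryopreserved members, 199 and 531 CPM, 2.67-fold (1.93 to 3.74) higher. The phosphate carrier SLC20A1 was 2.60-fold (1.67 to 4.17) higher with 28 and 75 UMIs, GALNT18 2.11-fold, NRG1 2.04-fold (1.45 to 2.90) and NFATC1, a transcription factor known from the hair follicle bulge, 1.92-fold (1.34 to 2.79). In the cells with SERPINB2, CCL27 or CLDN4, SLC20A1 was at a log2 of 0.05, and the other 4 genes were below 0. With every UMI limit of the rule written as a share of UMIs, a choice made after seeing the data, EGR1 was at a log2 of 0.38 and BHLHE40 at 0.80.

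The metallothioneins MT1X, MT1A and MT3 were also higher. MT1X had 1036 UMIs in fresh and 2515 in cryopreserved members, 3958 and 9335 CPM, 2.36-fold (2.19 to 2.54), and MT1A (log2 0.80) and MT3 (0.86) followed. Metallothionein genes are near copies of each other, so their UMIs may be split among them. Of the 11 measured metallothionein and oxidative stress genes 5 were higher and 2 lower (median 0.38), beside the 13.1% and 14.6% of all genes, with the reductase TXNRD1 at -0.86. MT1X was higher in the cells with SERPINB2, CCL27 or CLDN4 as well, at 0.68.

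Lower in cryopreserved members were ND3, a subunit of mitochondrial complex I, with 300 UMIs in all 20 fresh and 59 in 25 of 34 cryopreserved members, a ratio of 0.191 (0.142 to 0.253), and COX3, of complex IV, with 2769 and 1480 UMIs (0.519, 0.487 to 0.553). The cells with SERPINB2, CCL27 or CLDN4 had the same 2 genes lower, ND3 at 858 and 215 CPM and COX3 at 9201 and 5377 CPM. The mitochondrial genes were not all lower: of 11 measured, 2 were higher and 2 lower, beside the same 13.1% and 14.6% of all genes, and the median was -0.02, with ND1 at 0.57. Ribosomal protein genes RPS20 (502 and 254 UMIs, 0.492), RPL7 (435 and 229 UMIs, 0.511) and RPL23A (0.488) were lower, and at -0.97, -0.95 and -0.62 in the cells with SERPINB2, CCL27 or CLDN4. These genes have many pseudogenes, which can take up reads. GJA1, the gap junction protein connexin 43, had 139 and 65 UMIs, 531 and 241 CPM, a ratio of 0.454 (0.333 to 0.614), while it was at 0.02 in the cells with SERPINB2, CCL27 or CLDN4. ATP5F1B (0.506), WWC1 (0.510) and AEBP2 (0.524) were lower too.

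**Figure D5:**
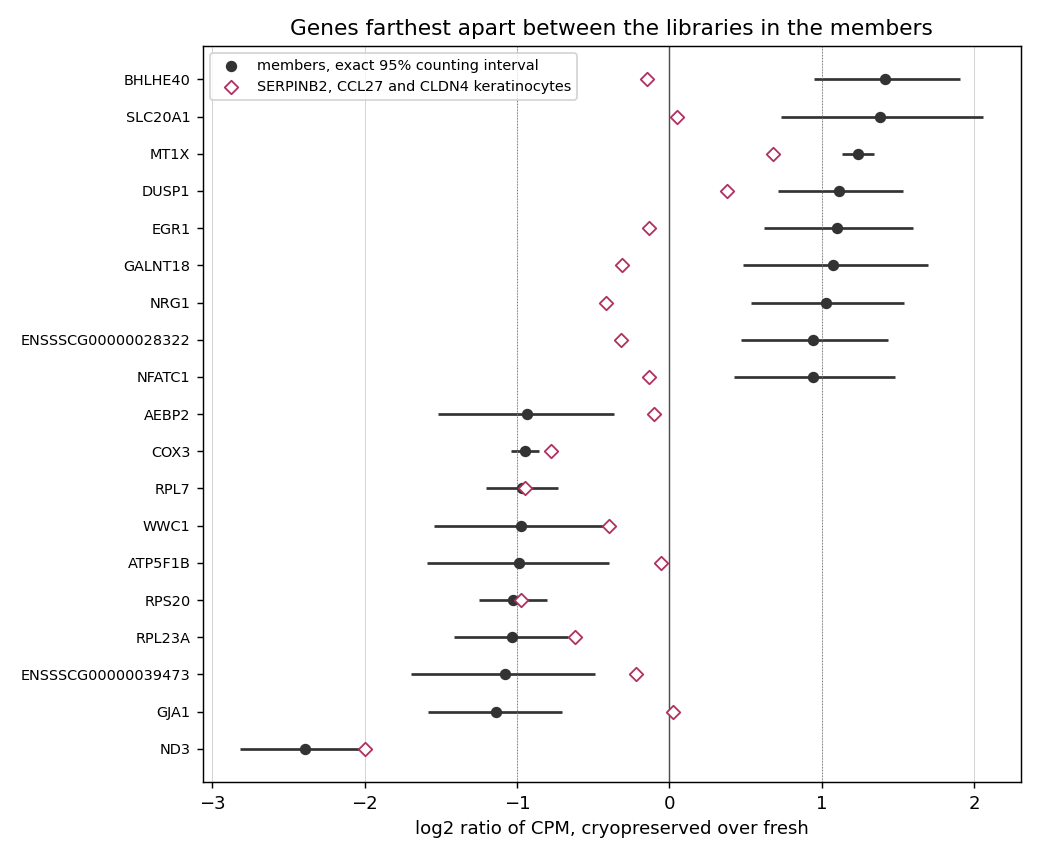
Log2 ratio of CPM, cryopreserved over fresh, for 19 genes in KRT5 and KRT15 keratinocytes, with counting intervals, and in the cells with SERPINB2, CCL27 or CLDN4 (diamonds). BHLHE40 at 2.67-fold heads the higher genes with its diamond near 0, and ND3 at a ratio of 0.191 heads the lower genes with its diamond beside it.

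Some anchoring genes were at a higher level in cryopreserved than in fresh members. Of 14 measured hemidesmosome and basement membrane genes 5 were higher by a log2 of 0.5 and 0 lower (median 0.18), beside the same 13.1% and 14.6% of all genes, including the plakin DST (88 and 149 UMIs, 0.72), ITGA6 (110 and 169 UMIs, 0.58), COL17A1 (186 and 278 UMIs, 0.54) and LAMA5 (0.65). ITGB4 was at 0.06, PLEC at 0.37 and ITGA3 at -0.36. Without the fresh member with most KRT15, the ratio was 1.44 (1.12 to 1.85) for ITGA6 and 1.36 (1.12 to 1.64) for COL17A1, which then lay below the log2 limit of 0.5. The summed level of the list was 3943 and 4866 CPM. Desmosome genes had 0 of 9 higher and 2 lower (median -0.05), junction genes 0 of 12 higher and 2 lower (-0.28), epidermal transcription factors 2 of 13 higher and 0 lower (0.21), with MYC at 0.93, and actin and contractile genes 1 of 21 higher and 0 lower (0.07). Growth factor genes had 2 of 12 in each direction. Notch genes had 2 of 6 higher and 0 lower, and cytokines 2 of 7 higher and 0 lower. Among the cytokines CXCL14 was at 0.69 and CCL2 at 1.76, although 1 member held most of the cryopreserved CCL2 UMIs, as given above. The 4 measured late differentiation genes and the 8 transport genes each had at most 1 gene past this limit in a direction, the 4 hair follicle genes and the 4 cell cycle inhibitors and p53 targets had 1 in each direction, the 3 fatty acid and cholesterol genes had 0, and the cold response gene RBM3 was at 0.34.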

How the data were processed

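Counts of UMIs per gene and barcode, not normalized, are what the authors deposited for each of the 2 libraries (31908 genes). The submitters' processing notes and the methods name Cell Ranger 4.0.0 with STAR 2.5.1b, the Sscrofa11.1 genome and its Ensembl annotation. Gene names came from the deposited list (16719) or a name table (782). The members and the 32 gene lists (544 genes, 481 found) were chosen with earlier results of these data known.

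Cells were selected by the limits given in the results. Doublets were gated out by light scatter during FACS, per the methods, and no doublet caller was applied here. UMIs were summed per library and cell set and scaled to CPM with TMM factors of edgeR 4.0.16 (R 4.3.3). Fibroblast and T cell levels use library totals. Intervals are exact (Poisson, conditional for ratios, binomial for shares) or from order statistics for medians, and the interval of a difference of shares is Newcombe's. In a ratio, a count under 3 on the lower side was raised to 3. Genes needed 50 UMIs over the profiles compared. No test was run, since each group was 1 library.

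Named genes were the 10 highest and 10 lowest ratios with at least 100 UMIs. The planned limit of 10% of UMIs in 1 cell left 29 genes between the libraries, 0 against the cells below the KRT15 limit and 7 against the cells with PTHLH or SOX9, so a limit of 30%, chosen after seeing this, was used (741, 626 and 1922 genes). It was used likewise against the cells with SERPINB2, CCL27 or CLDN4 (7023 genes) and with KRT1 and KRT10 (4934), where 10% had left 2805 and 985. Against other sets, neither limit applied to fewer than 10 UMIs. Within lists, the 3 most abundant genes and the 2 with the largest ratios could be named, and other list genes in the text were chosen after their values were seen. The summing and ratio steps were tested on simulated data. Alternatives used DESeq2 1.42.0 size factors, library totals, other filters, thinned cells and other members. Python 3.11.15, numpy 2.4.6, scipy 1.17.1, pandas 2.3.3 and matplotlib 3.10.9 were used. Promoters are from RefSeq. A few genes and 1 promoter are not reported here.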

Additional observations from a re-analysis of the deposited data

Results flagged for a closer look

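In the fresh library 4 barcodes met every gene limit of the rule but lay over one of the maxima, 3 of them over the mitochondrial maximum alone, and in the cryopreserved library 0 did. These barcodes are outside all comparisons above.

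Several genes and summed lists differed between the libraries in opposite directions in the KRT5 and KRT15 keratinocytes and in the cells with SERPINB2, CCL27 or CLDN4, with counting intervals on either side of 1. The difference between the directions was not tested. Of 21 summed lists 6 differed so, and the other 15 did not, among them the metallothionein and oxidative stress genes at 1.90 in members and 1.44 in the other cells. The level in cryopreserved cells over that in fresh cells was 1.49 (1.17 to 1.92) for ITGA6 in members and 0.855 (0.818 to 0.895) in the other cells. For COL17A1 it was 1.45 (1.20 to 1.76) and 0.90 (0.871 to 0.929). The summed hemidesmosome and basement membrane genes stood at 1.23 (1.14 to 1.34) and 0.807 (0.795 to 0.820). Against the cells with KRT1 and KRT10 the directions were opposite for ITGA6, at 0.873 (0.763 to 0.999) there, and the same for COL17A1, at 1.26 (1.08 to 1.47). The epidermal transcription factors were at 1.12 (1.03 to 1.22) and 0.894, the cytokines and innate defence genes at 1.22 (1.13 to 1.30) and 0.913, and the early response and heat shock genes at 1.37 (1.30 to 1.44) and 0.959. In the other direction, the mitochondrially encoded genes were at 0.919 (0.897 to 0.941) and 1.03, and the fatty acid and cholesterol genes at 0.707 (0.610 to 0.818) and 1.08, although 2 of the 3 genes of that list with enough UMIs were above 0 on the log2 scale in members (median 0.12). Members of the cryopreserved library had fewer UMIs each than fresh members, 6648.5 against 12153.5 in the median. The cells with SERPINB2, CCL27 or CLDN4 had fewer in that library too, 9272 against 14871. The part of depth in these values was not tested.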

How the results depend on the processing

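The rule's limits, the scaling, the filter on genes and the depth were varied. The difference in the share of members and the ratio of median UMIs stayed within their intervals under all 8 alternatives that gave a value, but the difference in share, 0.0844 percentage points, turned to -0.181 with every UMI limit as a share and to -0.0906 with at least 10 KRT15 UMIs, all with intervals that include 0, and the count of 0 of 18 hemidesmosome genes higher than in the cells with SERPINB2, CCL27 or CLDN4 stayed at 0 under all 14. The count of 75 of 1877 genes 2-fold apart between the libraries was 1337 of 12546 with genes of at least 1 UMI, 11 of 305 with at least 200 UMIs, 25 of 455 with cells thinned to 3000 UMIs and 0 of 31 when genes with over 10% of UMIs in 1 cell were left out. For the same 4 settings, the count of 172 of 9450 genes 2-fold higher than in the cells with SERPINB2, CCL27 or CLDN4 was 547 of 18078, 43 of 6118, 57 of 6267 and 34 of 3708, and with library totals it was 262. The median size of the log2 ratio between the libraries, 0.302, was 0.221, 0.243, 0.329 and 0.159 under those 4, 0.317 with at least 10 KRT15 UMIs and 0.344 without members with 3 UMIs of defining markers of other lineages. Fewer or more genes enter under each filter, and the cause of the other changes was not tested. The 34 genes higher and 41 lower between the libraries became 19 and 6 in thinned cells, where the median over all genes was 0.15, and 41 and 38 with library totals and 34 and 42 with DESeq2 size factors. Of 220 repeats of the 20 named genes between the libraries 204 stayed within the counting interval, 15 moved and 1 changed sign: ATP5F1B was at 0.20 in thinned cells. Of 440 repeats against the cells with SERPINB2, CCL27 or CLDN4, 415 stayed within it and 25 moved.

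The members numbered 15 fresh and 19 cryopreserved with at least 10 KRT15 UMIs, 22 and 38 with KRT15 as a share of UMIs, 23 and 34 with no mitochondrial limit and 24 and 34 with none of the maxima. Alternatives chosen after seeing the data were every UMI limit as a share (30 and 38 members), and leaving out the member with most KRT15 (19 and 34), members with defining markers of other lineages (13 and 28) or with immune markers (19 and 34). Leaving out members with 3 UMIs over all lists of other lineages left 0 and 2 cells and could not be run. No paired analysis was possible because each group was 1 library. Depth limits these values, which rest on 54 cells with 242286 and 244696 UMIs.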
